A study of Homo sapiens with 12 samples.

Results

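The clustered histone genes encode the linker histone H1 and the core histones H2A, H2B, H3 and H4, around which DNA is wound, and are known for being transcribed mainly while a cell copies its genome. Most of their mRNAs carry no poly-A tail. The 3′ end is made by a cut just behind a conserved stem-loop, which the protein SLBP binds and the U7 ribonucleoprotein helps to place. Some of the same genes also give polyadenylated transcripts through poly-A signals near or behind the stem-loop, best known from cells that have left the cycle. Values from an oligo(dT) library therefore describe the histone RNA that was captured with poly-A RNA and not the whole histone mRNA of the cell.

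Of 58174 genes in the deposited tables, 19799 are protein coding and 72 of these carry a clustered histone name of the families HIST1 to HIST4. The 60 genes described here were chosen by their mean FPKM (fragments per kilobase of gene, scaled to the size of the library) over the 6 libraries of a table, which had to be at least 0.1 in Hep-G2 or in BE(2)-C. This was met by 43 genes in Hep-G2 and by 60 in the BE(2)-C table, and all 43 are among the 60. Since both siRNAs enter the mean, levels are given as a description. Of the other 12 genes, 7 had no read in any of the 12 libraries. Just inside the threshold in BE(2)-C stood HIST1H4L with 0.153 FPKM, HIST1H1B with 0.171 FPKM and HIST1H2BB with 0.182 FPKM. Just outside, by the line where each was higher, stood HIST1H2AH with 0.0930 FPKM in BE(2)-C, and HIST1H1A with 0.0523 FPKM and HIST1H4G with 0.0361 FPKM in Hep-G2, both listed at 0 in BE(2)-C.

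Poly-A RNA was sequenced 72 h after transfection of control siRNAs (siC) or of an siRNA pool against IGF2BP1 (siI1), an RNA-binding protein that stabilises many mRNAs. The cells were Hep-G2, derived from liver cancer, and BE(2)-C, derived from neuroblastoma. The 4 groups, HEPG2_siC, HEPG2_siI1, BE2C_siC and BE2C_siI1, held 3 libraries each, described by the study as biological replicates, and p-values measure the spread between these libraries. The siRNA concentration was higher in BE(2)-C, and the tables of the cell lines were normalised separately, so levels set across them are only approximate.

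IGF2BP1 itself stood at 48.5, 46.6 and 50.8 FPKM in the Hep-G2 siC libraries and at 12.6, 10.7 and 10.7 FPKM with siI1. It stood in BE(2)-C at 21.3, 20.6 and 21.6 FPKM with siC and at 4.85, 4.75 and 4.87 FPKM with siI1. All siI1 libraries were far below all siC libraries of their line, as labelled. The fitted change was -2.10 log2 (SE 0.08, limma adjusted p = 7.83e-06) in Hep-G2, with -2.11 log2 (SE 0.05, limma adjusted p = 1.48e-05) in BE(2)-C. Here and below a fold change is the difference of mean log2(FPKM + 0.1), which understates the change of low genes, and adjusted p-values are by Benjamini-Hochberg over all genes tested with limma. An exact permutation test of 3 against 3 libraries cannot go below p = 0.1.

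Markers of both cell types were read to check the lines. The 8 hepatocyte markers, led by ALB, summed to 7633, 7588 and 7563 FPKM in Hep-G2 siC and to 12096, 13618 and 13787 FPKM in Hep-G2 siI1, and to at most 0.237 FPKM in any BE(2)-C library, where 4 to 7 of the 8 were at 0. The 11 neuroblast markers, led by MYCN, summed to 4132, 3882 and 3909 FPKM in BE(2)-C siC and to 4347, 4224 and 4305 FPKM in BE(2)-C siI1. In Hep-G2 the same 11 summed to 4.15 to 6.28 FPKM, led by GATA2, with 7 to 9 of them at 0. Of all genes, 21.9% rose and 23.0% fell with siI1 in Hep-G2 (limma, threshold 0.05). Of the 8 hepatocyte markers 5 rose there (62.5%) and 2 fell (25%), AFP and TTR. Among them APOA1 changed by 1.70 log2, ALB by 0.95 log2, SERPINA1 by 0.64 log2, FGB by 0.35 log2, TTR by -0.77 log2 and AFP by -0.59 log2. The call for ALB was lost without a filter on low values (limma adjusted p = 0.0728, range over its 17 alternatives 2.03e-08 to 0.0728). Of the 11 neuroblast markers 3 rose in BE(2)-C, TH by 0.61 log2 and CHGA by 0.39 log2 among them, and 4 fell, with changes of -0.73 log2 for HAND2 and -0.40 log2 for PHOX2A among them. That is 27.3% higher and 36.4% lower, against 13.3% and 14.8% of all genes in BE(2)-C. The part of these shifts in the histone values was not tested.

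The members share a sequence that the choice did not use. Within 150 bases behind the stop codon, 55 of the 56 members matched to the GENCODE annotation of GRCh38 hold a stem-loop of 16 bases, searched as a stem of 6 base pairs that opens with GG and closes with CC around a loop of 4, with T before and A behind the loop. It is not particular to the members, since all matched clustered histone genes outside them hold it too, HIST1H2AH, HIST1H1A and HIST1H4G among them. Behind coding genes other than the clustered histone genes, the same pattern stood in 43 of 19857 (0.217%). In the members the stem-loop began 22 to 62 bases behind the stop, with a median of 35. The commonest form, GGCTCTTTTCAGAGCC, stood in 30 members, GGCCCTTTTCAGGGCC in 8, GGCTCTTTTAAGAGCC in 7 and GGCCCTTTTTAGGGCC in 4. The exception was HIST1H3D.1, whose row overlaps other histone genes. The 8 stretches printed below, read from hg38 in the 3′ UTR and written 5′ to 3′ on the gene's strand with the stem-loop in capitals, belong to members whose levels or changes lead the results. They lie at chr6:26055739-26055764 (minus strand, HIST1H1C), chr6:26124664-26124689 (plus, HIST1H2AC), chr6:26123467-26123492 (minus, HIST1H2BC), chr6:27146361-27146386 (minus, HIST1H2BK), chr6:26225591-26225616 (plus, HIST1H3E), chr6:27810511-27810536 (plus, HIST1H3H), chr6:27831173-27831198 (minus, HIST1H4K) and chr12:14770719-14770744 (minus, HIST4H4).
HIST1H1C: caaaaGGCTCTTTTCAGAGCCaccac
HIST1H2AC: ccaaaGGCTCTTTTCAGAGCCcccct
HIST1H2BC: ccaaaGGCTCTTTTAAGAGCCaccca
HIST1H2BK: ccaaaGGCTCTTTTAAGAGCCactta
HIST1H3E: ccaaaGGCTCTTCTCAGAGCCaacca
HIST1H3H: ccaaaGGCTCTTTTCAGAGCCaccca
HIST1H4K: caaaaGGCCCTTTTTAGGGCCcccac
HIST4H4: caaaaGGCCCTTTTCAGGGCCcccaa

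Where counting ended relative to that stem-loop is known in part only. Reads were counted on an Ensembl annotation, per the study's methods, which was not used here. Of its models the tables give the length, and the GENCODE models read here are newer. In these, 39 members end at the stem-loop and 16 run past it, HIST1H2AC by 14432 bases, HIST1H2BC by 37155 bases, HIST4H4 by 2725 bases, HIST1H3E by 1862 bases and HIST1H3H by 769 bases. These are distances on the genome to the farthest annotated exon, introns included. The listed lengths are far shorter for HIST1H2AC (1668 bases) and HIST1H2BC (834 bases). For 13 of the 39 the listed length is above the whole span of the newer model, as for HIST1H3G with 2411 against 496 bases and HIST1H2BG with 1534 against 489 bases, so the newer models do not tell where their reads were counted. The listed length of 22 members, HIST1H1C, HIST1H2BK and HIST1H4K among them, equals the coding length, so reads outside the coding part would not be counted for them. These 22 had a median of 0.0868 FPKM in Hep-G2 and 0.507 FPKM in the BE(2)-C table, against 0.720 FPKM and 1.21 FPKM for the 34 matched members with a longer listed length. They held 20.3% of all member reads in Hep-G2 and 35.9% of those in BE(2)-C, and the 34 held 71.1% and 57.4%. Reads on a member may come from a neighbour: 16 members overlap another gene on their own strand and 13 on the other strand. The libraries were strand-specific, but the strand setting used in counting was not given, so reads of antisense partners cannot be told apart.

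Promoters were compared in windows of 300 bases around the start, taken from RefSeq on GRCh38.p14. They were looked up by the gene symbol in GENCODE, which found 51 of the 60 members. Members without a GENCODE match were not looked up. Searched on both strands, the TATA box letters TATAAA stood in 34 of 51 (66.7%) against 12% of 27305 promoters, and CCAAT in 42 of 51 (82.4%) against 35.7%. Upstream of the start, the TATA letters found for HIST1H2BC, HIST1H2AE, HIST1H2BM, HIST1H2BO and HIST1H3E stand in reverse. For HIST1H2BC, HIST1H2AE and HIST1H2BM they are the TATA letters of the divergent neighbours HIST1H2AC, HIST1H2BG and HIST1H2AJ. CCAAT stood in all 40 promoters of H1, H2A, H2B and H3 members but in 2 of 11 H4 promoters (18.2%), under the share of all promoters. The octamer ATTTGCAT, the letters read by OCT1, stood in 21 of 51 (41.2%) against 1.80%. It was found in 8 of 11 H2A and 13 of 17 H2B promoters and in 0 of the H1, H3 and H4 promoters. These are not all separate sites, as a site between divergent genes counts for both. That holds for HIST1H2AG and HIST1H2BJ, HIST2H2AC and HIST2H2BE, HIST1H2AE and HIST1H2BG, HIST1H2AJ and HIST1H2BM, and the pair named next. HIST1H2AC and HIST1H2BC start 218 bases apart on opposite strands and share an octamer at chr6:26124032-26124059. It is shown because the pair is compared below, once on the plus strand for HIST1H2AC and once on the minus strand for HIST1H2BC, beside that of HIST1H2BK at chr6:27146887-27146914 (minus) and of HIST2H2BE at chr1:149886711-149886738 (minus), with the octamer in capitals.
HIST1H2AC: gggcagagctATGCAAATgaggtatgaa
HIST1H2BC: ttcatacctcATTTGCATagctctgccc
HIST1H2BK: tcttcaccttATTTGCATgagaggtcct
HIST2H2BE: cggagccctaATTTGCATaaggtggtta
A TATA box is shown likewise for HIST1H2BK at chr6:27146870-27146895 (minus), HIST1H2AC at chr6:26124131-26124156 (plus) and HIST1H3H at chr6:27810009-27810034 (plus), and a CCAAT box for HIST1H1C at chr6:26056513-26056537 (minus) and, read on the other strand as ATTGG, for HIST1H3E at chr6:26224121-26224145 (plus). These are matches of letters and not measured binding.
HIST1H2BK: agaggtcctaTATAAAaacgactcct
HIST1H2AC: aggaactaccTATAAAagcggccatg
HIST1H3H: agactctcacTATAAAtaagcggcta
HIST1H1C: gaccagagcaCCAATcagagcgcgc
HIST1H3E: tgctctttttATTGGctaggaaaag

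Few genes carried most of the histone signal in either line. Members took 248, 252 and 251 RPM (reads scaled to the reads on genes of the library) in Hep-G2 siC and 219, 220 and 232 in Hep-G2 siI1, all siI1 libraries lying below all siC libraries. The BE(2)-C libraries gave them 233, 228 and 222 RPM with siC and 271, 276 and 264 with siI1, the opposite order, again without overlap. HIST1H2BK, an H2B gene, alone held 24.0% of the summed member FPKM in Hep-G2 and 46.4% of it in BE(2)-C, and the 8 highest members together 76.5% and 81.0%. Of the member reads, which are not divided by length, HIST1H2BK held 10.2% in Hep-G2, behind HIST1H2AC with 22.2% and HIST1H3H with 11.6%, and 26.5% in BE(2)-C, ahead of HIST3H2A with 13.97%. Without HIST1H2BK the sums were 228, 231 and 229 against 195, 191 and 203 RPM in Hep-G2 and 175, 175 and 171 against 191, 195 and 193 in BE(2)-C, so in RPM the order of the groups did not rest on it. Summed FPKM gave another picture. It weights short genes more, and it also rests on the authors' scaled library sizes, where RPM rests on the reads on genes. Which of these moved the order was not tested. In Hep-G2 the sums of 265, 274 and 278 FPKM with siC and 243, 258 and 278 FPKM with siI1 overlap, siI1 replicate 3 being the highest, and without HIST1H2BK they were apart at 213, 219 and 219 against 179, 181 and 201 FPKM. The BE(2)-C sums were apart at 365, 338 and 323 against 414, 407 and 380 FPKM, and without HIST1H2BK they overlapped at 208, 198 and 189 against 201, 198 and 198 FPKM. These sums carry no test, and in RNA pooled from many cells fewer cells making a transcript and less of it per cell cannot be told apart.

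**Figure D1:**
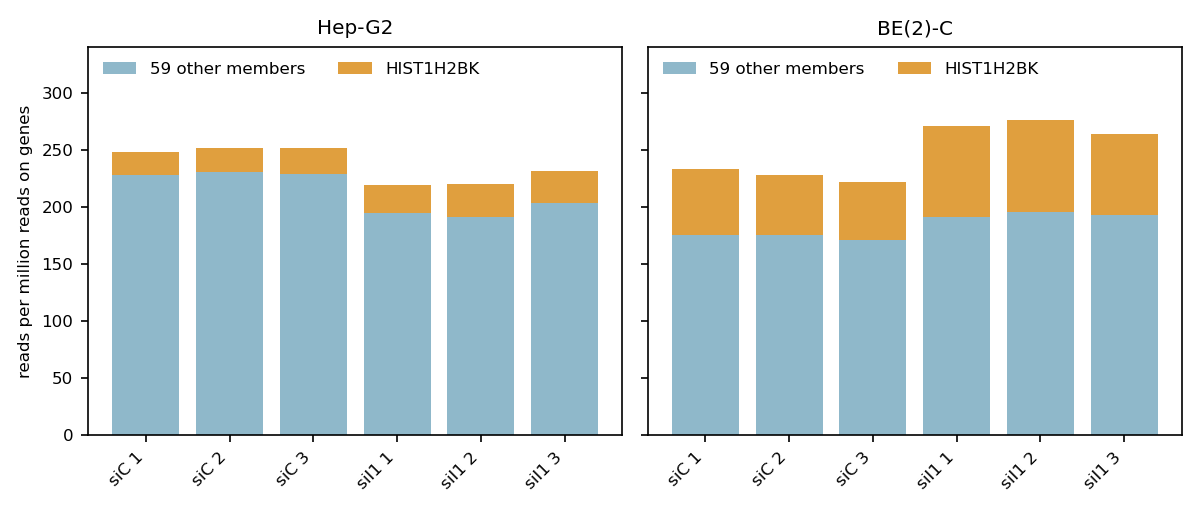
Stacked bars of the RPM of HIST1H2BK and of the 59 other members in each of the 12 libraries, by cell line and siRNA. In Hep-G2 the siI1 libraries (219 to 232) lie below the siC libraries (248 to 252), and in BE(2)-C they lie above (264 to 276 against 222 to 233).

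The other members were low. The median member had 0.462 FPKM in Hep-G2 and 0.932 FPKM in the BE(2)-C table. In Hep-G2 31 members, and in the other line 19, had fewer than 10 reads in every library. At least 100 reads in every library were reached by 5 members in Hep-G2 against 8 in BE(2)-C, out of 12852988 to 15721210 reads on genes per library. By class, H2B took 37.1% of the member FPKM in Hep-G2 and 54.0% of it in BE(2)-C, H2A 32.5% and 24.1%, H1 11.5% and 6.34%, H3 9.98% and 2.85%, and H4 8.85% and 12.8%. In RPM the order of H2A and H2B turned in Hep-G2, where H2A took 89.9, 92.2 and 91.1 RPM with siC and 73.9, 70.2 and 79.1 RPM with siI1, and H2B 78.7, 77.6 and 86.7 RPM and 69.8, 64.1 and 68.3 RPM, and H3 stood above H1 in all 6 libraries. In BE(2)-C H2B led in RPM too, with 91.0 to 123 RPM against 66.1 to 79.3 RPM for H2A. Many members encode the same protein, as the 13 H4 members have 1 coding product and the 11 matched H3 members 3, and reads of near-identical copies can be split between them. Values of HIST2H2AA3 and HIST2H2AA4, of HIST2H4A and HIST2H4B, and of HIST1H4J and HIST1H4K are uncertain for that reason.

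**Figure D2:**
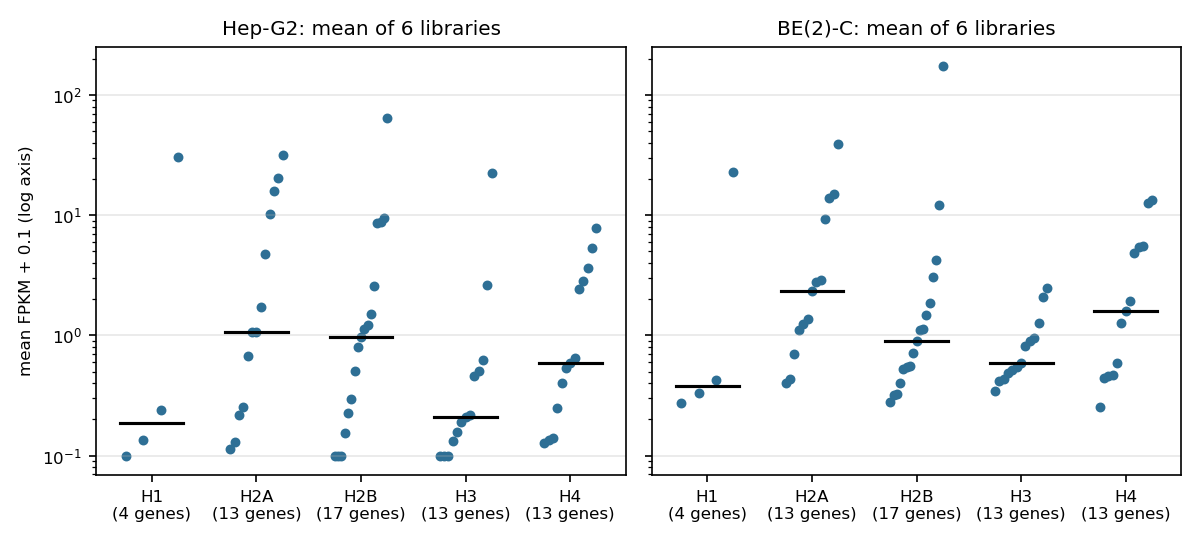
Mean FPKM + 0.1 of each member by histone class in both lines, on a log axis with 1 point per gene and a bar at the class median. In FPKM HIST1H2BK stands above all others in both lines, and the class medians run from 0.0882 FPKM (H1) to 0.969 FPKM (H2A) in Hep-G2 and from 0.279 FPKM (H1) to 2.24 FPKM (H2A) in BE(2)-C.

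The first comparison asks what siI1 did to histone transcripts in Hep-G2. The most abundant linker histone transcript, HIST1H1C, and H2B transcripts such as HIST1H2BC and HIST2H2BE fell, and HIST1H2BK, HIST1H3H and the pair HIST2H4A and HIST2H4B rose. Of 40 members that passed the filter on low values (at least 0.1 FPKM in 3 of 6 libraries), 10 fell and 4 rose. The 25.0% lower is near the 23.0% of all 19436 genes tested, and the 10.0% higher is under the 21.9% of all genes. In either direction 14 of 40 were called, where 44.8% of all genes were. Of the 10 that fell, 7 had at least 10 reads in every library. HIST2H2AB, also among the 10, passed the filter only through the group where it is high. The groups did not overlap with siI1 below siC in 13 of 40 members (32.5%, all genes 27.8%) and with siI1 above in 5 (12.5%, all genes 28.0%). The median change was -0.24 log2 over the 40 members and 0.01 log2 over all genes. The fit is less precise for these genes, with a median SE of 0.26 log2 against 0.15 log2 over all genes. Scaling to an equal sum of FPKM moved the median of all genes to -0.15 log2, with 5835 genes lower and 3211 higher in place of 4463 and 4250, and the member median to -0.38 log2 with 13 lower and 4 higher. Centring on the median moved all genes the other way, to 0.09 log2 with 3693 lower and 5015 higher, and the member median to -0.15 log2 with 8 lower and 4 higher. Without siC replicate 2 the members called lower numbered 5, and without siC replicate 3 or siI1 replicate 2 they numbered 6, where all genes lower numbered 3763, 3469 and 3661. Replicate 1 of Hep-G2 siI1 stands apart from its fellows, with a chi-square per gene of 13.8 and 14.3 against 1.98 between the other two, and without it 8 members fell and 4 rose, with 4973 of all genes lower and 4574 higher.

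With the same comparison in BE(2)-C, HIST1H2BK, HIST1H2AC and HIST1H3E rose and HIST2H2AA4 fell. Of 59 members that passed the filter, 6 rose and 3 fell. That is 10.2% higher against 13.3% of all 18656 genes tested, and 5.08% lower against 14.8%, both under the background, and in either direction 9 of 59 were called, where 28.2% of all genes were. Of the 6 that rose, 4 had at least 10 reads in every library. HIST1H3A and HIST2H3D, also among the 6, passed the filter only through the group where they are high. The groups did not overlap with siI1 above siC in 12 of 59 members (20.3%, all genes 22.6%) and with siI1 below in 6 (10.2%, all genes 22.4%). The median change was 0.24 log2 over the 59 members and 0.02 log2 over all genes, and 0.28 log2 and 0.26 log2 over the members with median centring and with an equal sum of FPKM, both of which left 1 member lower and 8 higher, with 2390 and 2605 of all genes lower and 2872 and 2586 higher in place of 2763 and 2489. The median SE was 0.37 log2 for the members and 0.14 log2 for all genes. Members lower numbered 1 without siC replicate 1, siI1 replicate 1 or siI1 replicate 3, where all genes lower numbered 2316, 2222 and 1895, and members higher 3 without siI1 replicate 2, where all genes higher numbered 1564. Because a low gene can pass the filter through the group where it is high, neither count speaks for the members that did not pass.

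**Figure D3:**
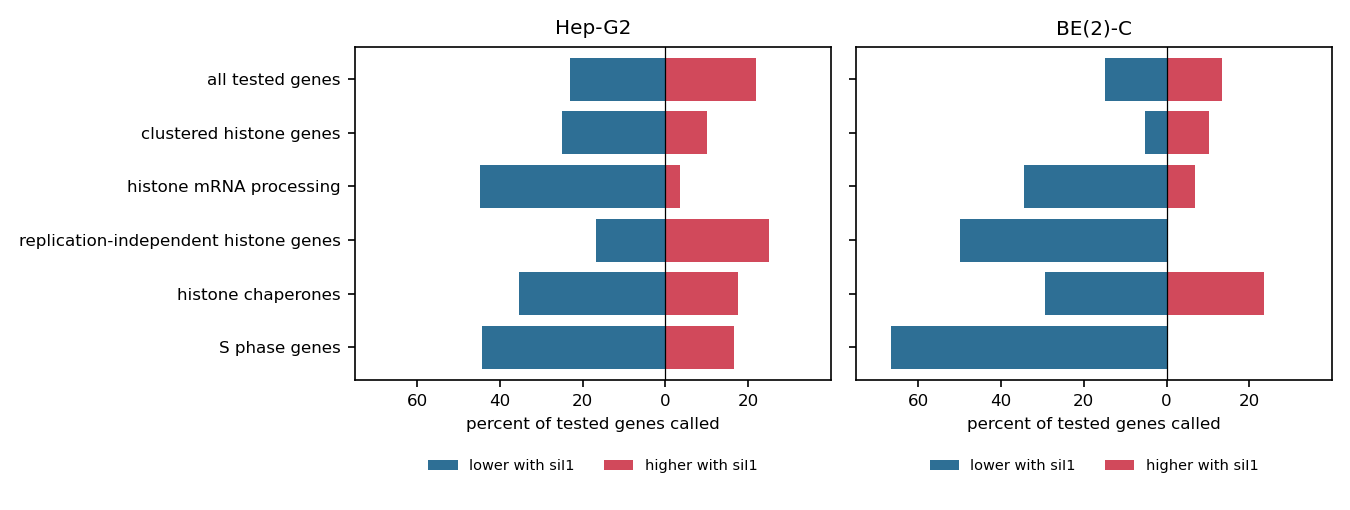
Bars give the percent of tested genes called lower (to the left) or higher (to the right) with siI1 in each line, for all genes, the members and 4 lists of related genes described further on. In Hep-G2 the members' share higher is 10.0% against 21.9% of all genes, and in BE(2)-C their share lower is 5.08% against 14.8%. The members' bars include calls on few reads, HIST2H2AB lower in Hep-G2 and HIST1H3A and HIST2H3D higher in BE(2)-C.

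Linker histones bind DNA where it enters and leaves the nucleosome. All 4 H1 members were tested in BE(2)-C, where none was called (range -1.003 to 0.17 log2), and 1 in Hep-G2, HIST1H1C. For this and the following classes the background is 23.0% lower and 21.9% higher of all genes in Hep-G2, with 14.8% and 13.3% in BE(2)-C. The classes are small, so their counts are a description and no class was tested as a set. HIST1H1C (H1.2), the main H1 transcript here, stood at 33.9, 45.5 and 33.6 FPKM in Hep-G2 siC and at 17.2, 24.5 and 28.3 FPKM in siI1. The highest siI1 library lay below the lowest siC library, though both groups spread widely (37.7 ± 6.78 and 23.3 ± 5.67 FPKM, SD, n = 3). It fell by 0.70 log2 (SE 0.20, limma adjusted p = 0.0269). The call was lost without siC replicate 2 (limma adjusted p = 0.0792) or siI1 replicate 2 (0.0582), and with no mean-variance trend (0.0579; range over 17 alternatives 0.00531 to 0.0792). The BE(2)-C libraries held 28.0, 25.3 and 21.9 FPKM with siC and 20.96, 19.1 and 21.6 FPKM with siI1, where the nearest libraries of the groups lay close together without overlap. That change of -0.28 log2 did not pass (limma adjusted p = 0.0673), passed without siC replicate 3 (0.0212) and with filters of at least 1 FPKM (0.0460) or at least 10 reads in 3 libraries (0.0362; range over 17 alternatives 0.0212 to 0.190). The difference from Hep-G2 of -0.42 log2 was not called (limma adjusted p = 0.190) but was with an equal sum of FPKM (-0.61 log2, 0.0328; range over 23 alternatives 0.0328 to 0.377).

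H2A pairs with H2B in the nucleosome. Of the 13 H2A members, 11 were tested in Hep-G2 with 2 lower, 1 of them HIST2H2AB on few reads, and 0 higher (median -0.24 log2), and 13 in BE(2)-C with 1 lower and 1 higher (median 0.02 log2, range -0.88 to 0.999). HIST1H2AC stood at 34.3, 36.3 and 32.6 FPKM in Hep-G2 siC and at 28.5, 26.1 and 31.1 FPKM in siI1. Each siI1 library lay below each siC library, by a small margin. It fell by 0.27 log2 (SE 0.08, limma adjusted p = 0.0276). That call was lost without siC replicate 1 (limma adjusted p = 0.0766), siC replicate 2 (0.0903) or siI1 replicate 2 (0.0820), with median centring (0.103), with no trend (0.0735) and with the replicate block (0.0529), over a range of 0.00397 to 0.103 in 17 alternatives. HIST1H2AC in BE(2)-C stood at 5.64, 7.11 and 5.70 FPKM with siC and at 11.9, 12.6 and 12.4 FPKM with siI1. The siI1 libraries lay far above the siC libraries and close to each other. It rose by 1.00 log2 (SE 0.10, limma adjusted p = 0.000662), from 6.15 ± 0.831 to 12.3 ± 0.339 FPKM (SD, n = 3), and the difference between lines was -1.27 log2 (SE 0.13, limma adjusted p = 2.09e-05).

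The pair HIST2H2AA3 and HIST2H2AA4 are near-identical copies. HIST2H2AA4 stood at 19.5, 18.1 and 15.2 FPKM in BE(2)-C siC and at 12.4, 11.8 and 12.9 FPKM in siI1. All siI1 libraries lay below the siC libraries, and it fell by 0.50 log2 (SE 0.09, limma adjusted p = 0.00834). With the reads of both copies summed, an alternative chosen after seeing the data, the pair was not called in BE(2)-C (limma adjusted p = 0.0580, range over the 17 alternatives of HIST2H2AA3 0.0580 to 0.953). HIST2H2AA3 in BE(2)-C stood at 16.9, 14.4 and 12.2 FPKM with siC and at 11.3, 14.8 and 13.5 FPKM with siI1, groups that overlap (-0.13 log2, no call). In Hep-G2 HIST2H2AA3 stood at 22.1, 21.4 and 24.5 FPKM with siC and at 13.2, 19.5 and 20.03 FPKM with siI1, below in all libraries but not called (limma adjusted p = 0.0934), and HIST2H2AA4 at 15.4, 15.6 and 19.96 FPKM against 11.5, 15.1 and 16.7 FPKM, with overlap. With an equal sum of FPKM both were called lower there (limma adjusted p = 0.0134, range over 17 alternatives 0.0134 to 0.229, and 0.0467, range over 16 alternatives 0.0467 to 0.607). HIST1H2AI had overlapping groups in both lines, at 10.5, 8.90 and 11.6 FPKM against 12.6, 7.92 and 8.63 FPKM in Hep-G2 and at 1.25, 3.57 and 3.13 FPKM against 2.83, 3.52 and 2.43 FPKM in BE(2)-C. HIST3H2A was a transcript of BE(2)-C, with 43.1, 36.7 and 36.3 FPKM in siC and 42.1, 36.3 and 38.8 FPKM in siI1, and in Hep-G2 it had 0 in every library but siI1 replicate 1 (0.0826 FPKM). HIST2H2AB is called lower in Hep-G2 on 1, 1 and 2 reads with siC and 0 with siI1. It passed the filter only through the group where it is high, and both groups lie at or under 3 reads a library, so no fold is given, and voom weights ended the call (limma adjusted p = 0.0716, range over 15 alternatives 0.00268 to 0.0716).

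**Figure D4:**
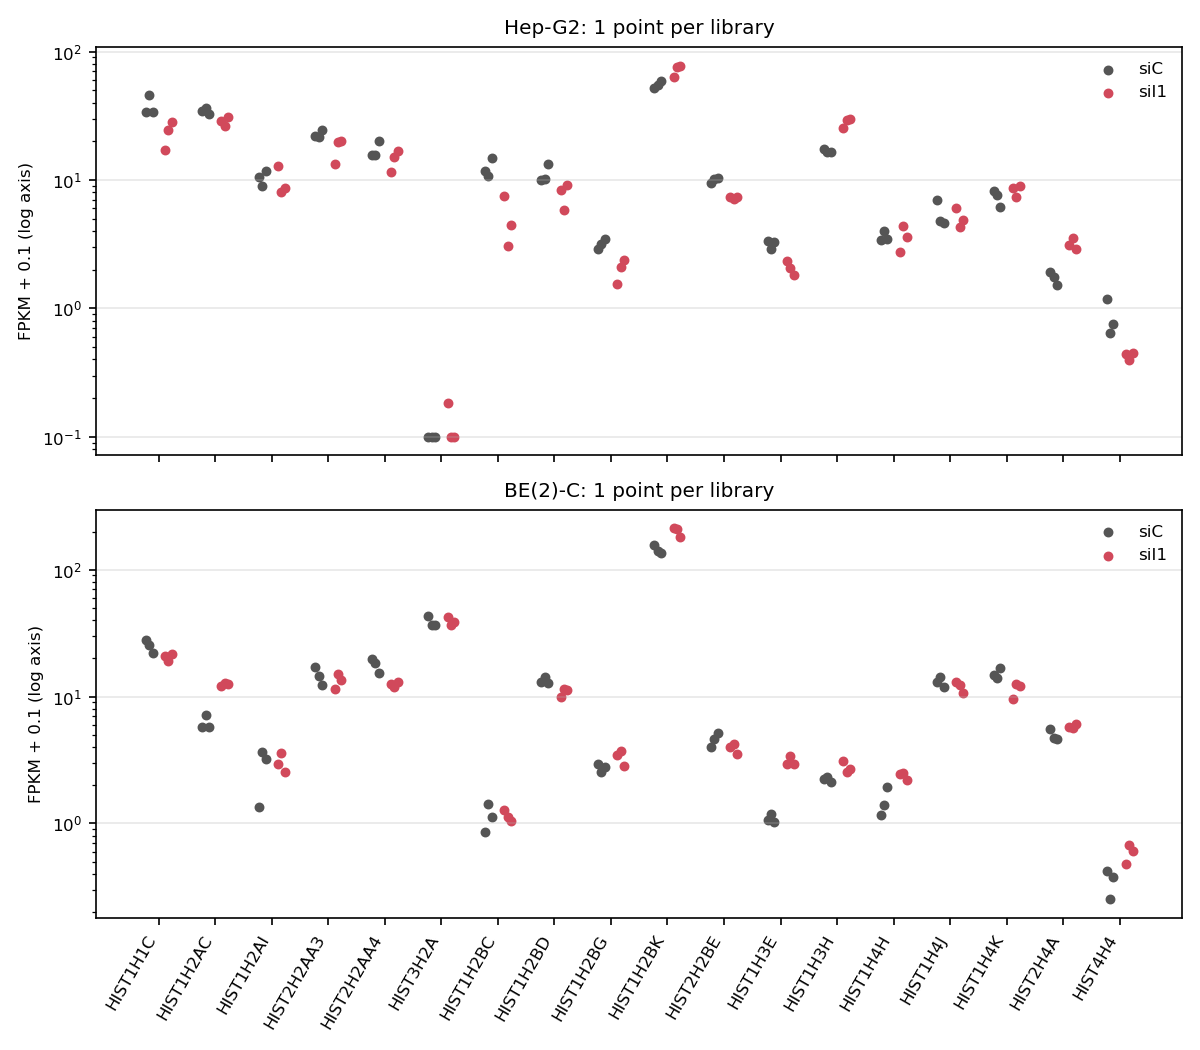
FPKM + 0.1 in each library for members named in the text, by line and siRNA, on log axes with 1 point per library. HIST1H2AC in BE(2)-C runs from 5.64 to 7.11 FPKM with siC and from 11.9 to 12.6 FPKM with siI1, and HIST1H2BK has the highest FPKM of all members in every library.

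H2B members numbered 17, of which 13 were tested in Hep-G2 with 3 lower and 1 higher (median -0.30 log2, range -1.39 to 0.41) and 17 in BE(2)-C with 1 lower and 1 higher (median 0.28 log2, range -0.89 to 1.36). HIST1H2BK stood at 51.7, 54.9 and 58.7 FPKM in Hep-G2 siC and at 63.1, 76.4 and 77.7 FPKM in siI1. In BE(2)-C it stood at 156, 140 and 134 FPKM with siC and at 212, 209 and 182 FPKM with siI1. In both lines all siI1 libraries lay above all siC libraries. It rose by 0.39 log2 in Hep-G2 (SE 0.09, limma adjusted p = 0.0143) and also, by 0.49 log2, in BE(2)-C (SE 0.08, limma adjusted p = 0.00550), from 55.1 ± 3.50 to 72.4 ± 8.12 FPKM and from 144 ± 11.6 to 201 ± 16.7 FPKM (SD, n = 3). The changes were not called different between lines (difference -0.10 log2, limma adjusted p = 0.597), except with an equal sum of FPKM (-0.28 log2, 0.0359; range over 23 alternatives 0.0359 to 0.991). The Hep-G2 call was lost without siC replicate 1 (limma adjusted p = 0.0546) or siI1 replicate 2 (0.0550), over a range of 0.00118 to 0.0550 in 17 alternatives.

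HIST1H2BC, the divergent neighbour of HIST1H2AC, stood at 11.6, 10.7 and 14.8 FPKM in Hep-G2 siC and at 7.45, 2.96 and 4.39 FPKM in siI1. All siI1 libraries lay below the siC libraries, and it fell by 1.39 log2 (SE 0.31, limma adjusted p = 0.0105). It was low in BE(2)-C, at 0.752, 1.31 and 1.03 FPKM with siC and at 1.16, 1.02 and 0.950 FPKM with siI1, with overlap. The difference between lines was -1.44 log2 (limma adjusted p = 0.0142). Both genes of the pair thus fell in Hep-G2, and in BE(2)-C HIST1H2AC rose while HIST1H2BC was not called.

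HIST2H2BE stood at 9.31, 10.0 and 10.3 FPKM in Hep-G2 siC and at 7.25, 7.01 and 7.26 FPKM in siI1. The siI1 libraries lay close together below the siC libraries, and it fell by 0.45 log2 (SE 0.06, limma adjusted p = 0.00128). In BE(2)-C it stood at 3.90, 4.55 and 5.08 FPKM with siC and at 3.92, 4.13 and 3.45 FPKM with siI1, with overlap and no call (-0.23 log2). The difference between lines was not called (limma adjusted p = 0.214) but was with an equal sum of FPKM (0.0411; range over 23 alternatives 0.0411 to 0.434). HIST1H2BG stood at 2.81, 3.06 and 3.36 FPKM in Hep-G2 siC and at 1.45, 2.01 and 2.29 FPKM in siI1, again with no overlap, and fell by 0.68 log2 (limma adjusted p = 0.0200). HIST1H2BG in BE(2)-C stood at 2.82, 2.44 and 2.66 FPKM against 3.37, 3.597 and 2.72 FPKM with overlap and no call, and the lines differed by -0.95 log2 (limma adjusted p = 0.00597). The Hep-G2 call for HIST1H2BG was lost without siC replicate 2 (limma adjusted p = 0.0552) or siC replicate 3 (0.0716; range over 17 alternatives 0.00472 to 0.0716). Its divergent neighbour HIST1H2AE changed by 0.20 log2 in Hep-G2 with no call. HIST1H2AE in BE(2)-C stood at 2.46, 1.84 and 2.39 FPKM with siC and at 3.43, 3.20 and 2.69 FPKM with siI1. All siI1 libraries lay above the siC libraries there, and it was not called (0.46 log2, limma adjusted p = 0.0543). HIST1H2BD stood at 13.0, 14.1 and 12.6 FPKM in BE(2)-C siC and at 9.88, 11.5 and 11.2 FPKM in siI1. The siI1 libraries lay below the siC libraries, and it fell by 0.29 log2 (SE 0.07, limma adjusted p = 0.0280). That call was lost in 8 of 17 alternatives (range 0.0159 to 0.0833), namely median centring (0.0540), an equal sum of FPKM (0.0601), voom weights (0.0833), no trend (0.0722) and those without siC replicate 1 (0.0564), siC replicate 2 (0.0786), siI1 replicate 1 (0.0696) or siI1 replicate 3 (0.0591). In Hep-G2 HIST1H2BD stood at 9.83, 10.0 and 13.2 FPKM against 8.32, 5.76 and 9.10 FPKM, lower in all siI1 libraries, and was not called (limma adjusted p = 0.0646). It was called in 6 of 17 alternatives, with filters of at least 1 FPKM (0.0470) or at least 10 reads (0.0395), an equal sum of FPKM (0.0287), voom weights (0.0339), the replicate block (0.0171) and without siI1 replicate 3 (0.0479; range 0.0171 to 0.185).

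H3 carries many of the marks set on nucleosomes, on its tail. Of 13 H3 members, 6 were tested in Hep-G2 with 2 lower and 1 higher (median -0.21 log2, range -1.35 to 0.74), and 13 in BE(2)-C with 0 lower and 3 higher (median 0.45 log2), of which HIST1H3A and HIST2H3D rest on few reads. The H3 sum was 32.8, 29.9 and 31.1 RPM in Hep-G2 siC and 39.0, 41.5 and 40.8 in siI1, and 8.73, 9.34 and 10.2 in BE(2)-C siC and 17.6, 17.7 and 15.5 in siI1, above siC in both lines. Without HIST1H3H the order in Hep-G2 turned, to 10.8, 9.51 and 10.6 RPM with siC against 7.54, 6.33 and 5.28 with siI1, and that in BE(2)-C did not, at 6.14, 6.61 and 7.71 RPM against 13.99, 14.7 and 12.2. HIST1H3H, which leads this sum in Hep-G2, stood there at 17.4, 16.3 and 16.4 FPKM with siC and at 25.2, 29.0 and 29.7 FPKM with siI1. All siI1 libraries lay well above the siC libraries, and it rose by 0.74 log2 (SE 0.08, limma adjusted p = 0.000312). BE(2)-C held less of it, with 2.14, 2.21 and 2.02 FPKM with siC and 2.98, 2.46 and 2.56 FPKM with siI1, higher in all 3 but not called (0.31 log2, limma adjusted p = 0.0698), though it was with a filter of at least 1 FPKM (0.0491), median centring (0.0455) and an equal sum of FPKM (0.0494; range over 17 alternatives 0.0455 to 0.287). The lines differed by 0.43 log2 (limma adjusted p = 0.0148), which was lost with an equal sum of FPKM (0.0807) and with voom weights (0.174; range over 23 alternatives 0.00290 to 0.174).

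Among the members called for the difference between lines, HIST1H3E differed most in the fit as described, with HIST1H2BO close to it (-2.03 log2). Over the alternatives the lowest difference was -2.30 log2 for HIST1H3E, -2.42 log2 for HIST1H2BO and -2.43 log2 for HIST1H3D.1, the latter 2 on few reads. HIST1H3E stood at 3.22, 2.82 and 3.16 FPKM in Hep-G2 siC and at 2.24, 1.97 and 1.73 FPKM in siI1. In BE(2)-C it stood at 0.962, 1.08 and 0.934 FPKM with siC and at 2.85, 3.301 and 2.85 FPKM with siI1. The groups did not overlap in either line, with siI1 below siC in Hep-G2 but above it in BE(2)-C. It fell by 0.61 log2 in Hep-G2 (SE 0.13, limma adjusted p = 0.00748) and rose by 1.51 log2 in BE(2)-C (SE 0.12, limma adjusted p = 0.000342), a difference of -2.12 log2 (SE 0.17, limma adjusted p = 3.70e-06).

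Other H3 calls rested on few reads. HIST1H3A had 0, 1 and 0 reads in BE(2)-C siC and 7, 6 and 1 reads in siI1, and HIST2H3D had 0, 2 and 2 reads against 6, 10 and 10. HIST2H3D was higher in all siI1 libraries, HIST1H3A in all but for a tie of siI1 replicate 3 with siC replicate 2 in reads, and neither had reads in Hep-G2. Both are called higher in BE(2)-C (limma adjusted p = 0.0448 and 0.0255), but passed the filter only through the group where they are high, and siC lies under 3 reads a library, so no fold is given and the calls are listed only. The HIST1H3A call was lost with pseudocounts of 0.01 (0.0530) and 1 (0.0576), with no filter (0.0809), with no trend (0.0796) and without siC replicate 1 (0.121), siC replicate 3 (0.115), siI1 replicate 1 (0.134) or siI1 replicate 2 (0.137; range over 15 alternatives 0.0162 to 0.137). That of HIST2H3D was lost with a pseudocount of 0.01 (0.0932), with no filter (0.0503), with no trend (0.0557) and without siI1 replicate 2 (0.0823) or siI1 replicate 3 (0.0814; range over 15 alternatives 0.00685 to 0.0932). HIST1H3D.1, which shares its place with other histone genes, had 8, 13 and 19 reads in Hep-G2 siC and 4, 3 and 3 in siI1, lower in every library (-1.35 log2, SE 0.34, limma adjusted p = 0.0167). Its call was lost without siC replicate 2 (0.0543), siC replicate 3 (0.0595) or siI1 replicate 2 (0.0527; range over 15 alternatives 0.00972 to 0.0595), and the lines differed by -1.80 log2 (limma adjusted p = 0.0184).

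H4 forms a tetramer with H3 at the centre of the nucleosome. Of 13 H4 members, 9 were tested in Hep-G2 with 2 lower and 2 higher (median 0.17 log2, range -0.95 to 0.88), and 12 in BE(2)-C with 1 lower and 1 higher (median 0.33 log2, range -0.42 to 1.20). HIST2H4A stood at 1.82, 1.64 and 1.41 FPKM in Hep-G2 siC and at 2.996, 3.44 and 2.79 FPKM in siI1, and its copy HIST2H4B at 2.14, 1.71 and 1.93 FPKM against 3.33, 3.70 and 3.72 FPKM. All siI1 libraries lay above all siC libraries for both copies, whose reads cannot be kept apart with certainty. HIST2H4A rose by 0.88 log2 (SE 0.14, limma adjusted p = 0.00223) and HIST2H4B by 0.87 log2 (SE 0.12, limma adjusted p = 0.00110). HIST2H4A in BE(2)-C stood at 5.42, 4.62 and 4.50 FPKM against 5.62, 5.51 and 6.03 FPKM, and was called only without siC replicate 1 (limma adjusted p = 0.0250, range over 16 alternatives 0.0250 to 0.240). The lines differed by 0.65 log2 for HIST2H4A (limma adjusted p = 0.00813) and by 0.63 log2 for HIST2H4B (limma adjusted p = 0.00950).

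HIST4H4, the lone gene of its cluster on chromosome 12, stood at 1.07, 0.541 and 0.658 FPKM in Hep-G2 siC and at 0.344, 0.293 and 0.348 FPKM in siI1. The siI1 libraries lay below the siC libraries, and it fell by 0.95 log2 (SE 0.28, limma adjusted p = 0.0293). The call was lost with no filter on low values (0.0704) and when any Hep-G2 library but siC replicate 2 was left out, with limma adjusted p = 0.0848 without siC replicate 1, 0.0622 without siC replicate 3, 0.0503 without siI1 replicate 1, 0.0837 without siI1 replicate 2 and 0.0645 without siI1 replicate 3 (range over 16 alternatives 0.00966 to 0.0848). In BE(2)-C it stood at 0.324, 0.151 and 0.277 FPKM with siC and at 0.376, 0.576 and 0.503 FPKM with siI1, higher in all 3 but called only with a filter of at least 10 reads (limma adjusted p = 0.0335, range over 16 alternatives 0.0335 to 0.244), and the lines differed by -1.71 log2 (limma adjusted p = 0.00590).

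HIST1H4H stood at 1.06, 1.30 and 1.85 FPKM in BE(2)-C siC and at 2.33, 2.39 and 2.097 FPKM in siI1. The siI1 libraries lay above the siC libraries, and it rose by 0.69 log2 (SE 0.20, limma adjusted p = 0.0388). That call was lost with no filter (0.0675), no trend (0.0639) and the replicate block (0.0698), and without siC replicate 1 (0.0821), siC replicate 2 (0.0970), siI1 replicate 1 (0.104), siI1 replicate 2 (0.112) or siI1 replicate 3 (0.0780; range over 17 alternatives 0.00808 to 0.112). In Hep-G2 its groups overlapped at 3.31, 3.90 and 3.35 FPKM against 2.63, 4.32 and 3.49 FPKM, and the difference between lines of -0.73 log2 was not called (limma adjusted p = 0.0594) but was in 6 of 23 alternatives (range 0.0134 to 0.131). HIST1H4K stood at 14.7, 14.001 and 16.7 FPKM in BE(2)-C siC and at 9.54, 12.5 and 12.002 FPKM in siI1, without overlap, and fell by 0.42 log2 (SE 0.12, limma adjusted p = 0.0335). Its call was lost with no filter (0.0582), median centring (0.0502), an equal sum of FPKM (0.0580), voom weights (0.0948) and no trend (0.0783), and without siC replicate 1 (0.0701), siC replicate 3 (0.0934), siI1 replicate 1 (0.0605) or siI1 replicate 3 (0.0607; range over 17 alternatives 0.00764 to 0.0948). In Hep-G2 HIST1H4K stood at 8.05, 7.53 and 6.08 FPKM against 8.53, 7.26 and 8.87 FPKM, with overlap. HIST1H4J, with the same coding sequence, stood at 12.9, 14.2 and 11.9 FPKM against 12.8, 12.1 and 10.6 FPKM in BE(2)-C and at 6.91, 4.72 and 4.54 FPKM against 5.95, 4.23 and 4.81 FPKM in Hep-G2, with overlap in both. The lines differed by 0.61 log2 for HIST1H4K (limma adjusted p = 0.0201), which was lost with an equal sum of FPKM (0.115), with voom weights (0.107) and when identical copies were summed, an alternative chosen after seeing the data (0.130; range over 23 alternatives 0.0114 to 0.130). HIST1H4E, named after its values were seen, had 14, 15 and 13 reads in Hep-G2 siC and 5, 10 and 6 in siI1, lower in every library (limma adjusted p = 0.0425). That call was lost with no filter (0.102), median centring (0.0604), voom weights (0.0695) and the replicate block (0.0509), and without siC replicate 1 (0.0911), siC replicate 2 (0.121), siC replicate 3 (0.0848), siI1 replicate 1 (0.0909) or siI1 replicate 3 (0.108; range over 16 alternatives 0.0136 to 0.121).

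Set against each other, the lines moved the histone genes in different ways for some members. Of 40 members tested in both, the difference of effects was called with Hep-G2 lower in 7 (17.5%, all 15362 genes 21.7%) and with Hep-G2 higher in 4 (10.0%, all genes 18.5%), both shares under the background, and in either direction 11 of 40, where 40.2% of all genes were called. The median difference was -0.33 log2 over the members and -0.04 log2 over all genes. An equal sum of FPKM moved the latter to -0.21 log2, with 4532 genes lower and 2039 higher in place of 3337 and 2843, and gave 12 members lower and 2 higher. Called lower were HIST1H3E, HIST1H2AC, HIST4H4, HIST1H2BG, HIST1H2BC, HIST1H3D.1 and HIST1H2BO, and called higher HIST1H3H, HIST1H4K, HIST2H4A and HIST2H4B. HIST1H2BO, named after its values were seen, had 8, 3 and 4 reads in Hep-G2 siC and 4, 2 and 2 in siI1, and 5, 3 and 1 reads in BE(2)-C siC and 10, 6 and 8 in siI1. The groups overlap in Hep-G2 and are apart in BE(2)-C, no change was called within a line (in BE(2)-C limma adjusted p = 0.0636, with a call in 3 of 16 alternatives over a range of 0.0334 to 0.164), and the difference was -2.03 log2 (limma adjusted p = 0.0252). It was lost without Hep-G2 siC replicate 1 (0.0626), siI1 replicate 2 (0.0590) or siI1 replicate 3 (0.0560), and without BE(2)-C siI1 replicate 1 (0.0551) or siI1 replicate 3 (0.0509; range over 21 alternatives 0.0112 to 0.0626). HIST1H2BK, HIST1H2AC and HIST1H3E were called in both lines, HIST1H2BK upward in both, which is 7.5% of the 40 where 16.8% of all genes tested in both were called in both. By sign alone, 13 of the 40 (32.5%, all genes 28.1%) were lower in both lines, 12 (30%, all genes 26.6%) higher in both, 13 (32.5%, all genes 23.3%) lower in Hep-G2 but higher in BE(2)-C, and 2 (5.0%, all genes 22.0%) the reverse.

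**Figure D5:**
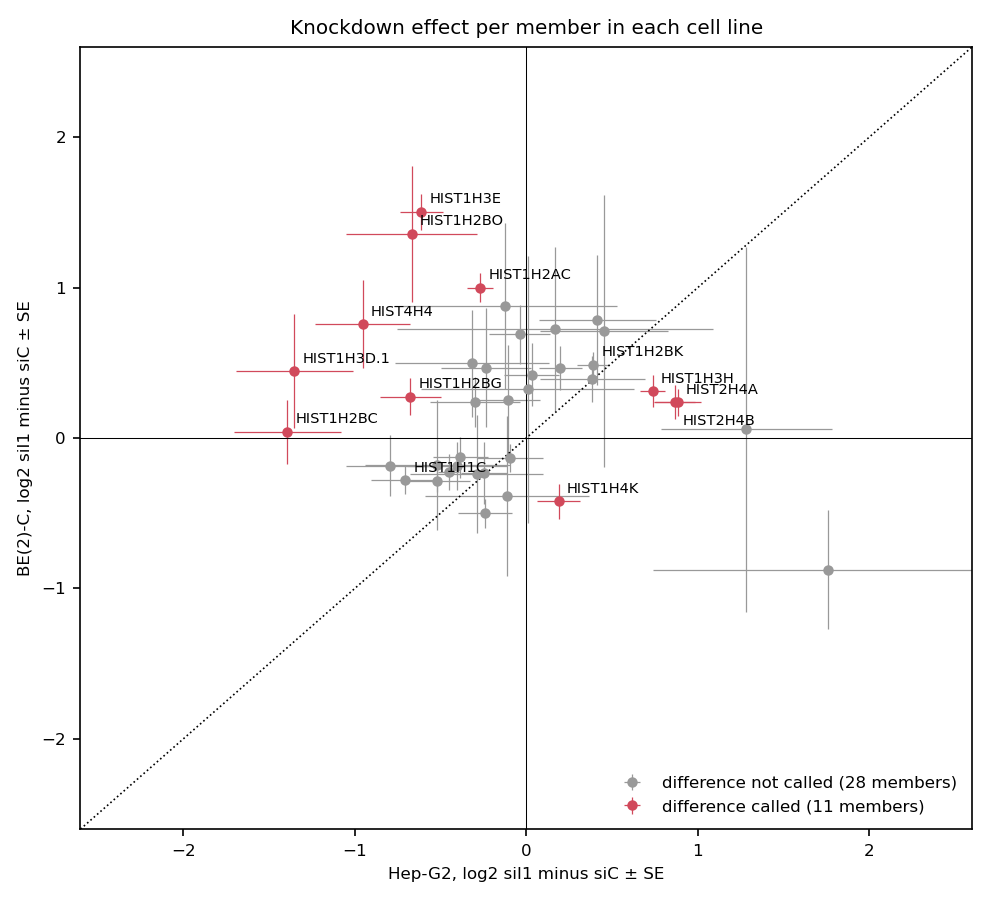
Change with siI1 (log2 ± SE) of 39 members, Hep-G2 on the horizontal and BE(2)-C on the vertical axis, with the 11 members called for the difference between lines marked and HIST2H2AB left out for its few reads. HIST1H3E lies at -0.61 and 1.51 and HIST1H2AC at -0.27 and 1.00, while HIST1H2BK is higher in both at 0.39 and 0.49.

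Histone mRNA is processed by its own machinery, which shares cleavage factors with other mRNAs. Of 29 genes of histone mRNA processing and transcription, 13 fell (44.8%) and 1 rose (3.45%) in Hep-G2 (median -0.30 log2) and 10 fell (34.5%) and 2 rose (6.90%) in BE(2)-C (median -0.06 log2). For this and the following lists the background is 23.0% lower and 21.9% higher of all genes in Hep-G2, with 14.8% and 13.3% in BE(2)-C. Named after their values were seen, NELFE is the gene that rose in Hep-G2, and NCBP1 and CDC73 those that rose in BE(2)-C. SLBP, the stem-loop binding protein, was called in neither line (0.04 and -0.06 log2 in Hep-G2 and BE(2)-C, the first turning to -0.13 with an equal sum of FPKM). NPAT, the coactivator of the histone clusters, fell by 0.76 log2 in Hep-G2 (limma adjusted p = 0.0208) and was not called in BE(2)-C (0.14 log2). Its call was lost without siC replicate 1 (0.0724), siC replicate 3 (0.0603), siI1 replicate 2 (0.0539) or siI1 replicate 3 (0.0593; range over 17 alternatives 0.00153 to 0.0724). CPSF2, a subunit of the cleavage complex, fell by 2.11 log2 in Hep-G2 (limma adjusted p = 4.67e-05) and by 0.92 log2 in BE(2)-C (limma adjusted p = 0.000743). NCBP2, of the cap-binding complex, fell by 0.88 log2 and by 0.31 log2, INTS11 by 0.62 log2 and by 0.53 log2, and E2F1 by 0.74 log2 and by 0.75 log2. CCNE1, cyclin E1, fell by 0.88 log2 in Hep-G2 and also, by 0.33 log2, in BE(2)-C, the latter not without siI1 replicate 3 (limma adjusted p = 0.0592, range over 17 alternatives 0.00872 to 0.0592). CSTF2 fell by 0.63 log2 in Hep-G2 and was not called in BE(2)-C (-0.22 log2). Of the U7 proteins, LSM10 fell in BE(2)-C by 0.36 log2 (limma adjusted p = 0.00656) and was not called in Hep-G2 (-0.28 log2) save with a filter of at least 10 reads (0.0489), an equal sum of FPKM (0.00328) and the replicate block (0.0301; range over 17 alternatives 0.00328 to 0.198), and LSM11 was called in neither line.

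Replication-independent histone genes make polyadenylated mRNA through the whole cycle, and 1 of the 12 listed, H2AFX, also holds the stem-loop letters. Of these 12, 2 fell (16.7%) and 3 rose (25.0%) in Hep-G2 (median 0.08 log2) and 6 fell (50%) and 0 rose in BE(2)-C (median -0.32 log2). The linker histone H1F0 fell in both lines, by 0.68 log2 and by 0.84 log2, and H2AFZ by 0.39 log2 and by 0.44 log2. H1FX rose by 0.55 log2 in Hep-G2 and fell by 1.01 log2 in BE(2)-C. H2AFY2 and H3F3A rose in Hep-G2 (1.04 and 0.28 log2) and were not called in BE(2)-C, where H2AFJ, H2AFV and H2AFX fell by 0.60, 0.62 and 0.48 log2. In Hep-G2 those 3 were not called. H2AFJ was called there in 6 of 17 alternatives, with filters of at least 1 FPKM (limma adjusted p = 0.0463) or at least 10 reads (0.0420), median centring (0.0245), voom weights (0.0327), the replicate block (0.0169) and without siI1 replicate 1 (0.00371; range 0.00371 to 0.209). H2AFX was called without siI1 replicate 1 (0.0340, range 0.0340 to 0.908), and H2AFV with an equal sum of FPKM (0.00617) and without siI1 replicate 3 (0.0398; range 0.00617 to 0.405). H3F3B was called in neither line, and in Hep-G2 only with median centring (0.0288, range 0.0288 to 0.556).

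Of 17 histone chaperones, 6 fell (35.3%) and 3 rose (17.6%) in Hep-G2 and 5 fell (29.4%) and 4 rose (23.5%) in BE(2)-C. CHAF1A, which loads new H3 and H4 behind the fork, fell by 0.73 log2 and by 0.54 log2, HJURP by 0.61 log2 and by 0.52 log2, while NAP1L1, a carrier of H2A and H2B, rose by 0.39 log2 and by 0.46 log2. CABIN1 rose by 0.33 and 0.39 log2, the former lost with an equal sum of FPKM (limma adjusted p = 0.120, range over 17 alternatives 0.000676 to 0.120). RBBP4 fell in Hep-G2 by 0.45 log2 and CHAF1B in BE(2)-C by 0.53 log2. Of 18 S phase genes, 8 fell (44.4%) and 3 rose (16.7%) in Hep-G2 (median -0.11 log2) and 12 fell (66.7%) and 0 rose in BE(2)-C (median -0.30 log2). The 3 that rose in Hep-G2, named after their values were seen, were PCNA by 0.24 log2, TYMS by 0.44 log2 and CDT1 by 0.33 log2, and all of them fell in BE(2)-C, with changes of -0.20, -0.43 and -0.45 log2. RRM2 fell in both lines (-1.14 and -0.62 log2), UHRF1 fell by 1.09 and by 0.31 log2, and GINS2 fell by 0.46 and by 1.04 log2. CDC6 fell in Hep-G2 by 0.90 log2 and TK1 in BE(2)-C by 0.83 log2, TK1 being called in Hep-G2 only with an equal sum of FPKM (limma adjusted p = 0.0490, range over 17 alternatives 0.0490 to 0.879). MCM5 fell by 0.29 log2 in Hep-G2 and also, by 0.47 log2, in BE(2)-C, the former lost with median centring (limma adjusted p = 0.0899), with no trend (0.0584) and without siC replicate 1 (0.0774), siC replicate 2 (0.0553), siC replicate 3 (0.0900) or siI1 replicate 2 (0.0590; range over 17 alternatives 0.00183 to 0.0900). The summed S phase level was 1271, 1275 and 1229 FPKM in BE(2)-C siC and 1034, 1009 and 995 FPKM in siI1, and 459, 482 and 459 FPKM in Hep-G2 siC and 452, 491 and 500 FPKM in siI1. In RPM, the scale of the histone sums above, S phase genes took 1449, 1481 and 1449 in Hep-G2 siC and 1296, 1337 and 1346 in siI1, and 4662, 4710 and 4631 in BE(2)-C siC and 3859, 3886 and 3829 in siI1. In RPM the S phase sum was thus lower in all siI1 libraries of both lines, while the histone sum was lower in Hep-G2 but higher in BE(2)-C. The part of the S phase genes in the histone values was not tested.

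RNAs that normally lack a poly-A tail were read beside the histone genes. Of the 14 listed, 11 to 13 were at 0 in each library and only RN7SL2 passed the filter, so their sum describes RN7SL2 and not such RNA as a whole. They took 52.8, 50.7 and 118 RPM in Hep-G2 siC and 49.9, 45.7 and 64.5 in siI1. The BE(2)-C values were 110, 172 and 2075 with siC and 1401, 1428 and 1178 with siI1, so siC replicate 3 stands with the siI1 libraries. Annotated snoRNAs took 40.7, 38.6 and 38.92 RPM in Hep-G2 siC and 30.7, 28.0 and 29.5 in siI1, and 33.9, 35.9 and 39.4 in BE(2)-C siC and 45.5, 42.0 and 43.7 in siI1. In RPM the snoRNAs thus had the order of the histone sums. Other annotated classes did not have it in Hep-G2, where the groups overlap. All these sums rest on few genes and do not measure RNA without a tail as a whole. Of 1900 snRNA genes 1807 to 1851 were at 0 in each library, and the highest was RNU4.5P or RNU1.70P, named as pseudogenes. The snoRNAs were led by SNORD104, and the rRNAs in Hep-G2 by RNA5SP283, also named as a pseudogene. In Hep-G2 annotated snRNAs took 14.4, 12.03 and 12.8 RPM against 16.1, 11.8 and 9.97, and rRNAs 6.39, 7.20 and 8.36 RPM against 6.79, 5.32 and 6.87. In BE(2)-C the snRNAs took 10.3, 8.87 and 10.7 RPM against 11.6, 12.4 and 11.4, higher with siI1, and the rRNAs 7.91, 10.04 and 9.08 RPM against 9.41, 13.002 and 9.89, with overlap. Annotated scaRNAs took 0.791, 1.26 and 0.959 RPM against 0.821, 0.808 and 0.650 in Hep-G2, with overlap, and 1.77, 1.32 and 2.23 RPM against 8.01, 5.82 and 7.40 in BE(2)-C. The part of such RNA in the histone values was not tested. In BE(2)-C siC replicate 3 the members took 222 RPM, the lowest of all 6 libraries of that line, beside the highest value for these 14 RNAs. When that library was left out, 6 members rose and 3 fell in BE(2)-C by limma, of which 5 and 2 were also called with it. All genes higher and lower then numbered 2088 and 2242 in place of 2489 and 2763.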

How the data were processed

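The deposited FPKM values cover Hep-G2 and BE(2)-C, 6 libraries each. Per the submitters' processing notes and the study's methods, the authors trimmed reads with Cutadapt 1.14, aligned them to hg38 with HISAT2 2.1.0 and SAMtools 1.5, counted genes of an Ensembl annotation with featureCounts 1.5.3 and computed FPKM with edgeR 3.30.3 on TMM-scaled library sizes. The tables also hold the authors' log fold changes, p-values and false discovery rates, which were not used. FPKM times gene length was a whole multiple of 1 step per library for 100% of nonzero values (tolerance 0.01), which gave reads per gene and 12852988 to 15721210 reads per library. Shallow genes are imprecise: members with under 10 reads in every library numbered 31 and 19.

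log2(FPKM + 0.1) was fitted with limma 3.58.1 (mean-variance trend) in R 4.3.3 over genes with at least 0.1 FPKM in 3 of 6 libraries, with Benjamini-Hochberg adjustment and a threshold of 0.05. The difference between lines was an interaction over 12 libraries. Tables were read with Python 3.11.15 and pandas 2.3.3. The fit was tested on simulated data with 200 changed genes per table. Alternatives were other pseudocounts, filters, scalings, voom weights, no trend, the replicate block, each library left out and, added after seeing the data, identical copies summed. Stem-loops and gene models were read from GENCODE on GRCh38, a newer annotation than the tables', in which 4 members had no match by identifier.

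Genes were named by rule: the 8 members highest in each line, up to 6 called per line and direction by smallest p, all called in both lines, up to 8 called for the difference, the 3 on either side of the threshold, IGF2BP1, up to 6 called per companion list, and SLBP, NPAT, LSM10, LSM11, H2AFZ, H3F3A, H3F3B and H1F0. The members and lists were chosen with earlier results of these data known. A few results on other genes of the lists are given as counts only.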

Additional observations from a re-analysis of the deposited data

Results flagged for a closer look

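Each value here is the effect of siI1 in Hep-G2 minus the effect in BE(2)-C on the log2 scale, and each was picked out because limma's test of that difference passed an adjusted p of 0.05. Among the clustered histone genes with the lower effect in Hep-G2, HIST1H3E differed by -2.12, HIST1H2BO by -2.03, HIST1H3D.1 by -1.80, HIST4H4 by -1.71, HIST1H2BC by -1.44, HIST1H2AC by -1.27 and HIST1H2BG by -0.95. HIST1H2BO had 1 to 10 reads a library over both lines, HIST1H3D.1 2 to 19 and HIST4H4 5 to 43, and HIST1H2BC had 9 to 15 in BE(2)-C against 36 to 182 in Hep-G2. With the higher effect in Hep-G2, HIST2H4A differed by 0.65, HIST2H4B by 0.63, HIST1H4K by 0.61 and HIST1H3H by 0.43. The first 3 have near-identical copies.

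Among the replication-independent histone genes the effect was higher in Hep-G2 for H1FX (1.56), H2AFY2 (0.98), H2AFJ (0.92), H2AFX (0.57), H2AFV (0.42) and H3F3B (0.17), which are 6 of the 12 tested (50%) with none lower. Over all 15362 genes tested, 21.7% were called lower and 18.5% higher in this difference. Among the genes of histone mRNA processing it was lower in Hep-G2 for CPSF2 (-1.19), NPAT (-0.90), NCBP2 (-0.57), CCNE1 (-0.55) and CSTF2 (-0.41), out of 11 of 29 genes of that list called lower (37.9%) and 3 called higher (10.3%), UPF1, MIF4GD and NELFE. Among the 17 chaperones, 3 called lower and 3 higher (17.6% each), CHAF1B differed by 0.42 and RBBP4 by -0.38. Among the 18 S phase genes, 5 called lower (27.8%) and 8 higher (44.4%), CDC6 differed by -0.80, UHRF1 by -0.78 and RRM2 by -0.52, and TK1 by 0.77 and GINS2 by 0.58. GATA2, a neuroblast marker also read in Hep-G2, differed by 0.37. With an equal sum of FPKM these differences were no longer called for HIST1H3H (limma adjusted p = 0.0807), HIST1H4K (0.115), H2AFV (0.0989), H3F3B (0.894), CHAF1B (0.101) and GATA2 (0.104), whose ranges over 23 alternatives were 0.00290 to 0.174, 0.0114 to 0.130, 0.000884 to 0.0989, 0.0136 to 0.894, 0.00733 to 0.101 and 0.00194 to 0.104.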

How the results depend on the processing

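Of the clustered histone genes called as described, 6 of 14 in Hep-G2, 4 of 9 with BE(2)-C cells, and 8 of 11 for the difference between lines passed under every alternative that gave them a value. These were HIST1H3H, HIST2H2BE, HIST1H3E, HIST1H2BC, HIST2H4A and HIST2H4B in Hep-G2 and HIST1H2BK, HIST1H2AC, HIST2H2AA4 and HIST1H3E in BE(2)-C, while for the difference HIST1H3H, HIST1H4K and HIST1H2BO did not. HIST2H4A and HIST2H4B are counted separately here, although their reads cannot be kept apart with certainty. The share of all called genes that passed under every alternative was not computed. HIST2H2AA4 has no value of its own with copies summed, where the pair with HIST2H2AA3 was not called in BE(2)-C (limma adjusted p = 0.0580, range 0.0580 to 0.953). Over all named genes and alternatives, 2829 values kept their direction and side of the threshold, 111 lost the call, 46 gained it and 29 changed sign. Counts of genes called in the marker and companion lists moved strongly in 48 cases and stayed at or near the printed count in 750. Of the 48, 26 came with 1 library left out, 7 with an equal sum of FPKM and 5 with no filter on low values. Many members have few reads, with 31 in Hep-G2 and 19 in BE(2)-C under 10 reads in every library, which limits every statement on low genes. Why a value moved was not tested.

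Members called lower in BE(2)-C numbered 1 in place of 3 with median centring, an equal sum of FPKM, voom weights and no mean-variance trend, where all genes lower numbered 2390, 2605, 3329 and 2203 in place of 2763. Members called higher there numbered 3 in place of 6 with no filter on low values, which tests more genes, and with no trend, where all genes higher numbered 2070 and 2214 in place of 2489. For the difference between lines an equal sum of FPKM gave 12 lower and 2 higher in place of 7 and 4 (all genes 4532 and 2039 in place of 3337 and 2843), and summing identical copies, chosen after seeing the data, gave 2 higher, since it counts HIST2H4A and HIST2H4B as 1 gene and HIST1H4K was no longer called. With 1 library left out, members lower and higher ranged from 5 to 9 and from 3 to 5 in Hep-G2, then from 1 to 4 and from 3 to 6 in BE(2)-C, and from 6 to 9 and from 4 to 5 for the difference. All genes lower and higher ranged over these fits from 3469 to 4973 and from 3326 to 4574 in Hep-G2. The ranges were 1895 to 2316 and 1519 to 2103 in BE(2)-C, and 2870 to 3782 and 2424 to 3283 for the difference.

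Signs changed only for values that were not called, H3F3B apart. Without 1 library, HIST1H2AI ranged in Hep-G2 from -0.31 to 0.0241, in BE(2)-C from -0.20 to 0.52 and for the difference from -0.63 to 0.0928. Further ranges without 1 library were -0.43 to 0.37 for HIST2H2AB in BE(2)-C, -0.15 to 0.22 for HIST1H2BC in BE(2)-C, -0.0402 to 0.0957 for HIST3H2A in BE(2)-C, -0.22 to 0.0939 for HIST1H4J in Hep-G2, -0.20 to 0.14 for HIST1H4H in Hep-G2, -0.15 to 0.0582 for TK1 in Hep-G2 and -0.0937 to 0.23 for HIST1H4J in the difference. With an equal sum of FPKM, HIST1H4J for the difference was -0.15, and H2AFX, SLBP and H3F3B in Hep-G2 were -0.0792, -0.13 and -0.10, and H3F3B for the difference -0.0131. With median centring HIST1H4H and TK1 in Hep-G2 were 0.0510 and 0.0311, and with copies summed HIST2H2AA3 for the difference was 0.00120. The call of H3F3B for the difference was lost in 15 of 23 alternatives with the sign kept and in 1 more with the sign changed (limma adjusted p from 0.0136 to 0.894).

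Replicates of the same number deviated together with correlations of 0.06, 0.04 and -0.01 among Hep-G2 libraries and 0.02, -0.01 and -0.00 among BE(2)-C libraries, and not every library correlated best with its own number, so the libraries share only a number. With the replicate number as a block, Hep-G2 had 9 members lower and 4 higher. BE(2)-C had 3 and 5, and there were 7 and 4 for the difference. Under this block the Hep-G2 fit called 4502 of all genes lower and 4318 higher, in place of 4463 and 4250. The BE(2)-C fit called 2531 lower and 2141 higher, in place of 2763 and 2489. The difference gave 3354 lower and 2941 higher, in place of 3337 and 2843.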
